A study of Verbena bonariensis with 6 samples.

Results

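The zinc-finger homeodomain family (zf-HD) in roots of Verbena bonariensis, an ornamental garden plant, comprised 39 of the 8147 gene clusters in a table of transcriptional regulators measured by RNA sequencing. A cluster is a group of assembled transcripts that was counted as 1 gene. Members were the clusters whose regulator family was zf-HD. They were divided by the description of their best Swiss-Prot hit into 9 mini zinc finger clusters and 30 others. All plants were of the strain Finesse and 2 months old. Control plants received no cadmium solution, while the cadmium plants were at 100 mg/kg cadmium, and both were harvested after 20 days. Each group held 3 libraries, described as biological replicates, and how many plants made up a library was not stated.

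Zinc-finger homeodomain (ZHD) proteins are plant regulators with a zinc finger, through which they pair with each other, and a homeodomain, through which they bind DNA. Mini zinc finger (MIF) proteins carry the same kind of zinc finger without a homeodomain. In Arabidopsis, MIF proteins pair with ZHD proteins and keep them from acting on their targets, so they are known as inhibitors of the family. Overexpression of MIF1 in Arabidopsis alters growth and the response to several hormones.

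The counts of all regulators summed to between 1092183 and 1340255 per library, within whole libraries of 18619728 to 23343050 fragments, a size worked out from counts and FPKM (fragments per kilobase of transcript, scaled to library size). Regulators took 6.45% to 6.52% of the control libraries and 5.23% to 5.53% of the cadmium libraries, without overlap. CPM in the following are counts scaled to the regulators of each library after TMM, and errors are SD with n = 3 per group. Fold changes are cadmium against control on that scale, with the SE of the fit. Scaling to whole libraries instead moved the median log2 fold change of all clusters by −0.35. The table holds regulators only, so the tissue could not be checked against root markers.

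Cluster names rest on the best hit, which was an Arabidopsis protein for 28 members and a rice protein for 7, while 4 had none. Of the 30 others, 24 were named as ZHD proteins. A further 2 had a tRNA methyltransferase, an enzyme that modifies transfer RNA, as their best Swiss-Prot hit, against the family label. The longest annotated coding stretch of the 9 MIF-named clusters was short, at 288 to 396 bases. Of these 9, 5 shared their best hit in the NR protein database, a hypothetical protein of the monkeyflower Erythranthe guttata, with 3 clusters outside the mini group. Those 3 were also short, at 393 to 417 bases, against 1026 bases in the most abundant ZHD5-named cluster. The 30 others as a whole ran from 208 to 1747 bases with a median of 438, beside a median of 390 for the MIF-named clusters. A short stretch was therefore not particular to the mini group or to those 3. The best NR hit gave another family number for some clusters, so the numbers in the names are open. It was a sesame ZHD6 for the ZHD5-named pair and a sesame ZHD10 for the ZHD9-named Cluster-9766.0. For the MIF1-named Cluster-9033.14474 and Cluster-9033.14476 it was a sesame mini zinc finger protein 2. The homeobox domain was annotated in 3 of the 39 clusters, none of them MIF-named. A zinc finger domain of the ZF-HD kind was annotated in none of the 39, MIF-named or other. The domain annotation therefore does not separate the MIF-named clusters from most of the others.

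**Figure D1:**
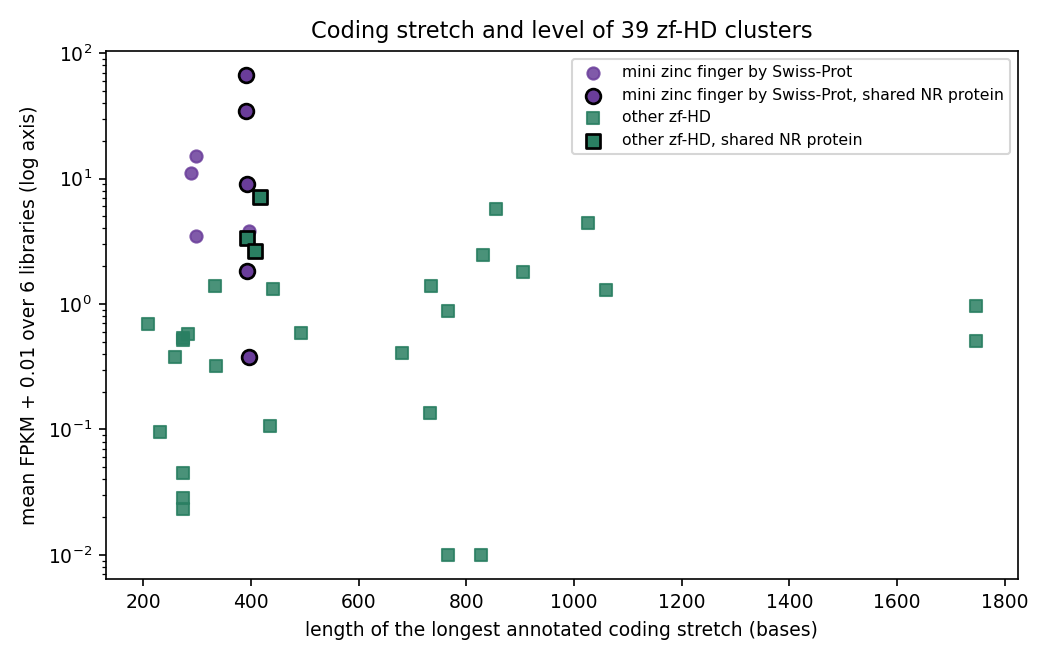
Longest annotated coding stretch in bases (horizontal axis) against mean FPKM + 0.01 over 6 libraries (vertical axis, log scale) for the 39 zf-HD clusters, with MIF-named clusters and others marked apart and the 8 clusters that share 1 best NR protein outlined in black. The MIF-named clusters lie between 288 and 396 bases, and the 3 others with the shared protein lie beside them at 393 to 417 bases. The others as a whole run from 208 to 1747 bases, with a median of 438.

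Most of the family's transcript was MIF-named. The MIF-named clusters made up 75.7% to 81.7% of the family's summed FPKM in each library. Their sum was 176, 156 and 161 FPKM in the control libraries and 123, 122 and 140 FPKM in the cadmium libraries, so every cadmium library was lower. The log2 ratio of this summed level was −0.36, beside the −0.35 by which whole-library scaling moved the median of all clusters. In CPM the same sum was 1376.5 ± 71.1 in control and 1382 ± 76.9 in cadmium, with overlapping libraries. The others summed to 39.9, 40.1 and 36 FPKM in control and 39.4, 37.4 and 43.8 FPKM in cadmium, and the groups overlapped. These are bulk roots, in which fewer cells of a type and less RNA per cell cannot be told apart.

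Among the 21 clusters that passed the filter on low counts, 8 MIF-named and 13 others, 7 changed under cadmium, 4 of them higher and 3 lower. The test was edgeR's quasi-likelihood test at a Benjamini-Hochberg adjusted p below 0.05, fitted over all 4844 clusters that passed. The 7 calls are 33.3% of the members tested, near the 30.5% of all clusters tested (15.8% higher and 14.6% lower). The MIF-named clusters had 2 higher and 2 lower, and the others 2 higher and 1 lower. With whole-library totals 8 members changed, 4 higher and 4 lower, beside 33.8% of all clusters (10.9% higher and 22.9% lower). The median log2 fold change was −0.05 over the tested MIF-named clusters and 0.33 over the tested others, beside −0.08 over all clusters, and whole-library totals moved these to −0.40, −0.03 and −0.42. Control and cadmium libraries were apart in 11 of the 21 clusters (52.4%), beside 53.5% of all clusters tested. Whether MIF-named clusters and others differ was not tested.

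**Figure D2:**
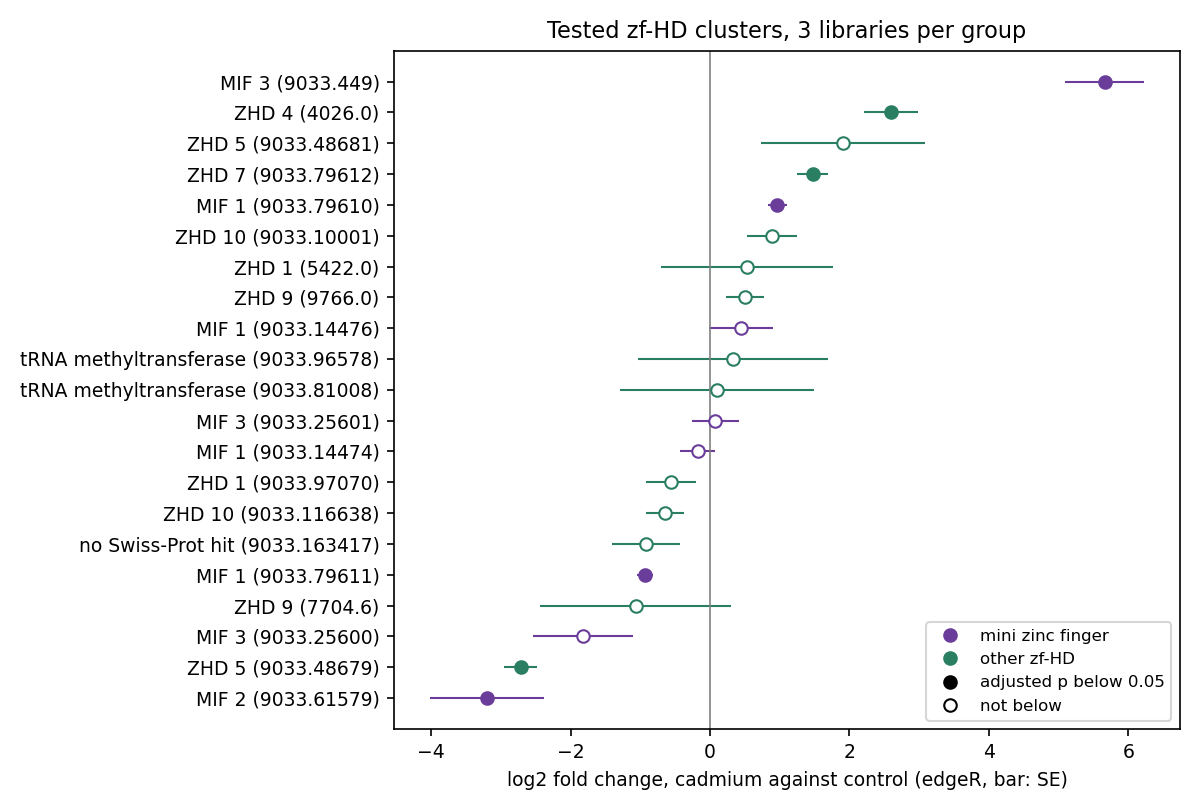
Log2 fold change of cadmium against control with its SE (edgeR, 3 libraries per group) for the 21 tested zf-HD clusters, with MIF-named clusters and others in different colours and filled points for an adjusted p below 0.05. The MIF3-named cluster at 5.66 and the MIF2-named cluster at −3.20 are the extremes, and both kinds of cluster lie on either side of 0.

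The largest change was that of a MIF3-named cluster (Cluster-9033.449). MIF3 is a mini zinc finger whose overexpression in Arabidopsis gives ectopic shoot meristems on leaf margins. Its counts were 7, 1 and 8 in the control libraries and 238, 225 and 267 in the cadmium libraries. All cadmium libraries were far above all controls. Its mean of 4.08 ± 2.92 CPM rose to 212 ± 14.8 CPM (log2 fold change 5.66 ± 0.57, edgeR, Benjamini-Hochberg adjusted p = 0.000994), and the size of the rise rests on the 1 to 8 counts of the controls. Per length it reached 21.4 ± 1.99 FPKM under cadmium, above the 8.24 ± 2.83 FPKM of the next MIF3-named cluster (Cluster-9033.25601). Its best NR protein, a hypothetical protein of peach, was the best hit of no other cluster in the table.

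The remaining MIF3-named clusters had no such rise. Cluster-9033.25601 held 56.8, 86.3 and 90.3 CPM in control and 52.5, 89.8 and 104 CPM in cadmium, with overlapping groups (log2 fold change 0.07 ± 0.33, edgeR adjusted p = 0.897). Cluster-9033.25600 held 45.8, 32.9 and 15.8 CPM in control and 16.2, 3.55 and 6.57 CPM in cadmium. Its lowest control library lay just under its highest cadmium library, and it did not pass (log2 fold change −1.82 ± 0.72, edgeR adjusted p = 0.108). Cluster-17940.0 had 5, 3 and 2 counts in control and 0 in each cadmium library, too few for the test.

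The MIF2-named cluster (Cluster-9033.61579) went down. MIF2 belongs to the mini zinc fingers known in Arabidopsis and tomato for their part in ending the activity of floral meristems. Its counts were 129, 27 and 59 in control and 11, 7 and 2 in cadmium. All cadmium libraries were below all controls, and the controls differed widely among themselves. It fell from 54 ± 36.3 to 5.8 ± 3.8 CPM (log2 fold change −3.20 ± 0.82, edgeR adjusted p = 0.0298). The call was lost without cadmium replicate 1, 2 or 3 and without control replicate 1 or 3 (adjusted p 0.0562 to 0.108), and with a replicate block (adjusted p = 0.0694).

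**Figure D3:**
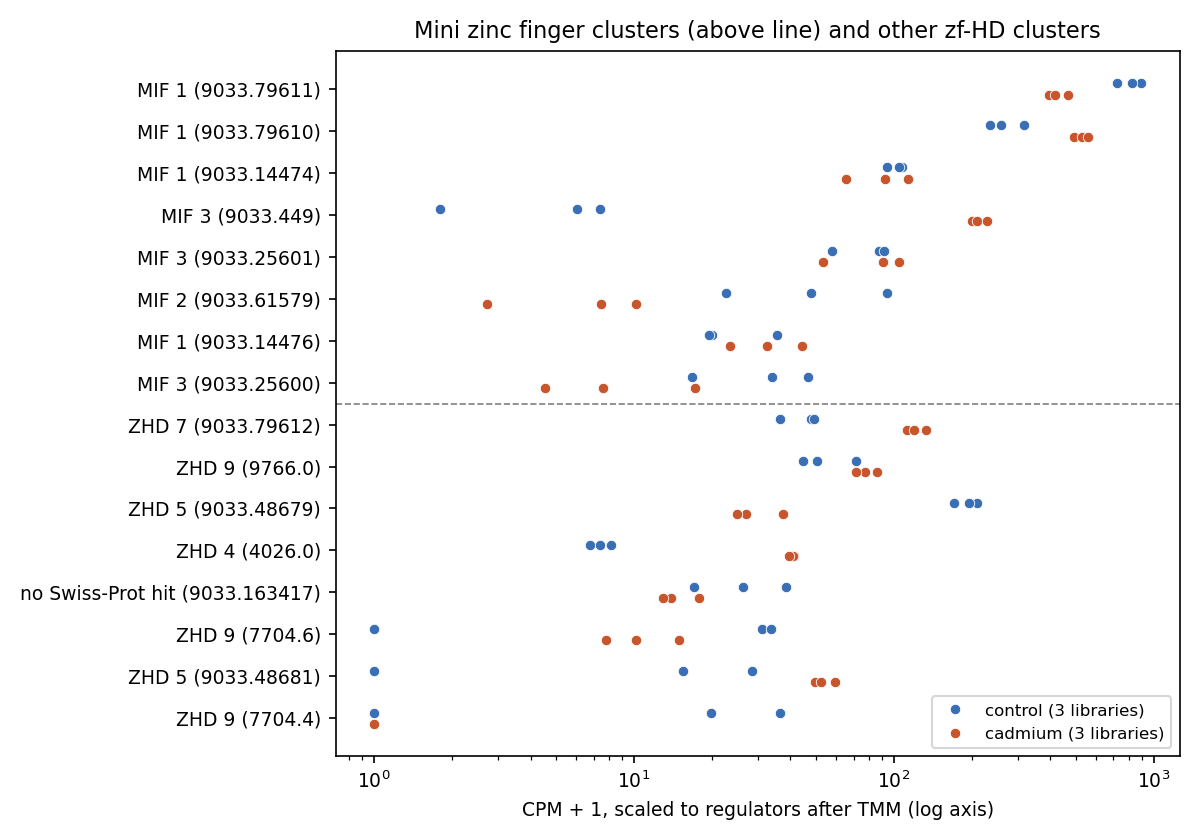
CPM + 1 in each library (horizontal axis, log scale) of the 16 named zf-HD clusters, control in blue and cadmium in red, with MIF-named clusters above the dashed line and others below it. The MIF3-named Cluster-9033.449 moves from at most 6.38 CPM in control to at least 199 CPM in cadmium, and the MIF1-named Cluster-9033.79611 and Cluster-9033.79610 move in opposite directions.

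A pair of MIF1-named clusters had the highest levels of the family, and they moved in opposite directions. Cluster-9033.79611 held 895, 825 and 718 CPM in control and 467, 396 and 415 CPM in cadmium. It fell by 0.93 ± 0.12 on the log2 scale (edgeR adjusted p = 0.00203). Cluster-9033.79610 held 233, 257 and 317 CPM in control and 494, 528 and 557 CPM in cadmium, and rose by 0.97 ± 0.14 (edgeR adjusted p = 0.00357). In neither cluster did the groups overlap. The ZHD7-named Cluster-9033.79612, which had the same best NR protein, held 47.2, 48.1 and 35.5 CPM in control and 131, 112 and 118 CPM in cadmium. It rose by 1.47 ± 0.22 (edgeR adjusted p = 0.0043). Its coding stretch of 417 bases was close to the 390 bases of both MIF1-named clusters, and also to the median of 438 bases outside the mini group.

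The counts of these 3 clusters had decimals, and only their sum was whole in all 6 libraries. The sum was 1627, 1413 and 1342 counts in control and 1304, 1120 and 1276 in cadmium. In CPM it was 1125 ± 52.7 in control and 1073 ± 32.2 in cadmium, with overlapping groups. Fitted as 1 unit it did not pass (log2 fold change −0.07 ± 0.07, edgeR adjusted p = 0.487), while with whole-library totals it was lower in cadmium at −0.42 ± 0.07 (edgeR adjusted p = 0.00466), beside a median of −0.42 over all clusters. The makeup of the sum did differ between the groups. Cluster-9033.79611 held 67.1% to 76.2% of the summed counts in control and 38.1% to 42.8% in cadmium. Cluster-9033.79610 held 19.8% to 29.6% in control and 45.2% to 51.1% in cadmium, and Cluster-9033.79612 held 3.32% to 4.26% and 10.8% to 12%.

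Such sums were common in the family. Of 25 members with decimals in their counts, 17 fell into 8 groups of clusters with a shared best hit whose counts added up to whole numbers in every library, within 0.025 counts. Reads of near-identical clusters can be divided among them by the counting. The values of single clusters in these groups are uncertain to that extent. Decimals beyond 0.025 occurred in 1 to 6 libraries, depending on the group. They occurred in only 1 library for the ZHD9-named group and for Cluster-16902.0 with Cluster-9033.10001, so these groupings rest on little. The other 8 members with decimals fell into no such group, and how their reads were divided is not known here. Fitting the 8 sums in place of their clusters, which was decided with the data in view, left 17 units tested in the family. Of these 6 changed, 3 higher and 3 lower (35.3%), beside 30.5% of all units (15.8% higher and 14.6% lower).

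**Figure D4:**
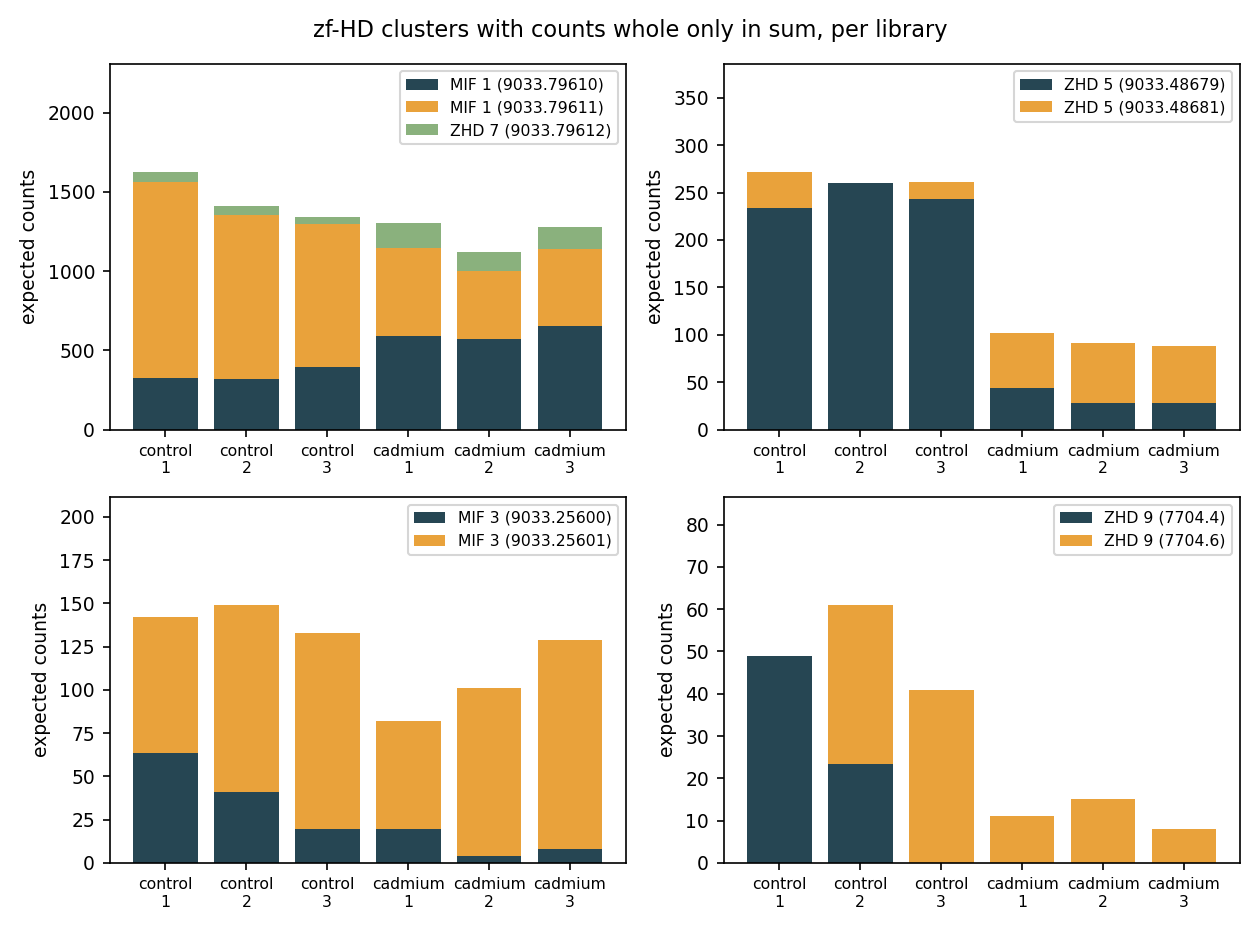
Expected counts per library (vertical axes, from 0) of 4 groups of zf-HD clusters whose counts are whole when added, stacked by cluster. The MIF1 and ZHD7 group changes in makeup at sums of 1120 to 1627 counts, the ZHD5 group goes from at least 260 to at most 102 counts, the MIF3 group from between 133 and 149 to between 82 and 129 counts, and the ZHD9 group from at least 41 to at most 15 counts.

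Both further sums of MIF-named clusters overlapped between the groups in CPM. The MIF3-named Cluster-9033.25600 and Cluster-9033.25601 together had 142, 149 and 133 counts in control and 82, 101 and 129 in cadmium (log2 fold change −0.27 ± 0.23, edgeR adjusted p = 0.428). The MIF1-named Cluster-9033.14474 and Cluster-9033.14476 together had 174, 139 and 173 counts in control and 147, 94 and 182 in cadmium (log2 fold change −0.04 ± 0.25, edgeR adjusted p = 0.935). On its own, Cluster-9033.14474 held 101 ± 7.36 CPM in control and 89.5 ± 24 CPM in cadmium (edgeR adjusted p = 0.633). Cluster-9033.14476 held 23.9 ± 9.06 and 32.4 ± 10.4 CPM (edgeR adjusted p = 0.516).

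Among the clusters outside the mini group, 1 of a ZHD5-named pair fell. ZHD5 is an Arabidopsis homeodomain protein with which MIF1 pairs. The best NR hit of this pair was instead a sesame protein named ZHD6, so which ZHD protein it encodes is open. Cluster-9033.48679 held 169, 208 and 194 CPM in control and 36.6, 26 and 24 CPM in cadmium, well apart. It fell by 2.71 ± 0.24 on the log2 scale (edgeR adjusted p = 0.000576). Its companion Cluster-9033.48681 held 27.4, 0 and 14.4 CPM in control and 48.9, 58.1 and 51.2 CPM in cadmium, all above the controls, without passing the test (log2 fold change 1.91 ± 1.18, edgeR adjusted p = 0.277). Together they had 272, 260 and 261 counts in control and 102, 91 and 88 in cadmium, with little spread in either group. The sum fell from 204 ± 6.66 to 81.6 ± 5.57 CPM (log2 fold change −1.32 ± 0.13, edgeR adjusted p = 0.00104), a smaller change than that of Cluster-9033.48679 alone.

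A cluster named for the rice protein ZHD4 (Cluster-4026.0) had 8, 8 and 9 counts in control and 48, 43 and 45 in cadmium. Each group had very little spread, and the counts were whole without addition. It rose from 6.45 ± 0.701 to 39.5 ± 0.91 CPM (log2 fold change 2.59 ± 0.38, edgeR adjusted p = 0.00406). Its coding stretch of 393 bases and its best NR protein were those of MIF-named clusters. Cluster-9033.163417, which had that NR protein but no Swiss-Prot hit, held 25.3, 37.6 and 16 CPM in control and 16.8, 12.9 and 12 CPM in cadmium (log2 fold change −0.91 ± 0.49, edgeR adjusted p = 0.215). All 8 clusters with that protein added up to 1817, 1620 and 1506 counts in control and 1454, 1278 and 1464 in cadmium. With counts summed over the best NR protein throughout the table, this sum did not pass (log2 fold change −0.06 ± 0.07, edgeR adjusted p = 0.49). In that fit 5 of the 9 family sums tested changed, 2 higher and 3 lower, beside 60.3% of all sums (30.4% higher and 29.9% lower).

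The ZHD9-named clusters, whose Arabidopsis namesake is a homeodomain member of the family, had unlike values. Cluster-7704.4 had 49, 23.46 and 0 counts in control and 0 in every cadmium library, and Cluster-7704.6 had 0, 37.54 and 41 counts in control and 11, 15 and 8 in cadmium. Each of them was at 0 in 1 control library in which the other was not. Both had decimals in control replicate 2 only, so adding their counts rests on that library. Their sum of 49, 61 and 41 counts in control and 11, 15 and 8 in cadmium did not overlap between the groups. It fell from 39 ± 8.61 to 9.97 ± 3.58 CPM (log2 fold change −1.96 ± 0.45, edgeR adjusted p = 0.0209). That call was lost without cadmium replicate 1 or 3 and without control replicate 1 or 2 (adjusted p 0.055 to 0.0843), and with a replicate block (adjusted p = 0.0627). Cluster-9766.0, with an annotated homeobox, held 70.8, 49.6 and 43.9 CPM in control and 76.2, 70.3 and 85.4 CPM in cadmium, where only the highest control reached the cadmium range (log2 fold change 0.50 ± 0.27, edgeR adjusted p = 0.225).

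The ZHD2-named pair, Cluster-11118.0 and Cluster-1233.0, was counted too low to be tested singly. Together they had 1, 4 and 1 counts in control and 18, 10 and 14 in cadmium, all higher. The sum passed narrowly (log2 fold change 2.87 ± 0.83, edgeR adjusted p = 0.0435). Its call was lost with whole-library totals (adjusted p = 0.057), with no filter (0.112), with a replicate block (0.153), and without any library but control replicate 2 (0.101 to 0.144). The pair of Cluster-16902.0, ZHD8-named, and Cluster-9033.10001, ZHD10-named, had 52, 29 and 41 counts in control and 69, 45 and 83 in cadmium, apart in CPM but not past the test (log2 fold change 0.86 ± 0.35, edgeR adjusted p = 0.118). These clusters were chosen for description after their values were seen.

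Levels can be ordered per length. In control the MIF1-named Cluster-9033.79611 led with 95 ± 10.2 FPKM, followed by Cluster-9033.79610 with 27 ± 4.54 FPKM and Cluster-9033.14474 with 17.6 ± 1.51 FPKM. Cluster-9033.25601 at 9.79 ± 2.28 FPKM and the ZHD5-named Cluster-9033.48679 at 7.86 ± 0.711 FPKM came next and lay within their spread. In cadmium Cluster-9033.79610 at 41.8 ± 3.47 FPKM and Cluster-9033.79611 at 39.5 ± 2.49 FPKM lay within their spread, and the MIF3-named Cluster-9033.449 followed. Cluster-9033.48679 was at 0.937 ± 0.197 FPKM in cadmium.

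The 14 tested members that did not pass had log2 fold changes between −1.82 and 1.91. Of the 18 members not tested, 2 were at 0 in every library, and none exceeded 49 counts in any library. The authors' deposited table called 8 of the 39 clusters at a q-value under 0.05, with 5 higher and 3 lower, beside 19.1% of the clusters that have a q-value there. The 7 clusters called here were among them in the same direction, and the other was Cluster-9033.48681, with a q-value of 0.0411 in the authors' deposited table.

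Known partners of the family in Arabidopsis were looked up by name. NAC factors of the NAC019 kind act with a ZHD protein on the promoter of a drought-response gene, and ARF2, an auxin response factor, represses ZHD5. Of 13 clusters with these names, 7 NAC and 6 ARF2, 8 were tested, 1 rose and 2 fell (37.5%, beside 30.5% of all clusters). Under whole-library totals 2 fell (25%), beside 33.8% of all clusters. The NAC019-named Cluster-9033.38297 held 319, 382 and 387 CPM in control and 536, 591 and 550 CPM in cadmium, without overlap. It rose by 0.63 ± 0.11 on the log2 scale (edgeR adjusted p = 0.00709), and by 0.28 ± 0.11 without passing under whole-library totals (adjusted p = 0.0989). The ARF2-named Cluster-9033.81843 held 441, 475 and 527 CPM in control and 0.62, 0 and 5.01 CPM in cadmium. It fell by 7.82 ± 0.69 on the log2 scale (edgeR adjusted p = 0.000621). Its coding stretch was 420 bases, against 2481 bases in the most abundant ARF2-named cluster. The counts of both of these called clusters had decimals. Whole-number sums were sought only among zf-HD clusters, so how far reads were divided with other clusters is not known here.

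A second ARF2-named cluster, Cluster-9033.76108, held 888, 1295 and 1173 CPM in control and 0, 46.7 and 0 CPM in cadmium. It fell by 6.18 ± 1.33 on the log2 scale (edgeR adjusted p = 0.016), a call lost without control replicate 2 (adjusted p = 0.0537) or 3 (0.0504). Cadmium replicate 2 was the only cadmium library with counts, and the counts of this cluster also had decimals. The most abundant ARF2-named cluster, Cluster-9033.78749, held 3023 ± 445 CPM in control and 3646 ± 270 CPM in cadmium and did not pass (edgeR adjusted p = 0.137). The sum over the 5 clusters that share the best NR protein of Cluster-9033.76108 and Cluster-9033.78749 did not pass either (log2 fold change −0.18 ± 0.08, edgeR adjusted p = 0.0845). That sum leaves out Cluster-9033.81843, whose best NR protein was that of no other cluster. With sums over the best Swiss-Prot hit, both partner units tested changed, 1 higher and 1 lower, beside 56.7% of all units. KNUCKLES and TOPLESS, partners of a tomato mini zinc finger, and WUSCHEL were also looked up, and no cluster had any of these names. Only WUSCHEL itself was sought, so WUSCHEL-related names were not covered.

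The other homeodomain clusters of the table, the 267 clusters of family HB, had 18 higher and 27 lower of 147 tested (30.6%, beside 30.5% of all clusters), with a median log2 fold change of −0.25. Whole-library totals gave 11 higher and 45 lower (38.1%), beside 33.8% of all clusters (10.9% higher and 22.9% lower). The shares of changed clusters in HB and in zf-HD both lay near that of all clusters, and their difference was not tested.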

How the data were processed

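Root RNA of 3 control and 3 cadmium libraries was compared. Expected counts per cluster were deposited by the authors without scaling. FPKM values, the log2 ratio and the q-value of cadmium against control also come from the authors, per the file headers. Bowtie2 2.0.6 and TopHat2 2.0.12 are named in the submitters' processing notes, without roles; the assembler and the counting tool were not given in the sources used here.

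Lines were reduced to 1 per cluster (47 lines for 39 members). Expected counts were rounded and fitted over the whole table in edgeR 4.0.16 (R 4.3.3) with filterByExpr (minimum count 10, minimum total 15), TMM scaling and a quasi-likelihood test on group alone, adjusted by Benjamini-Hochberg. SE was obtained from the F statistic, as absolute log2 fold change over √F. The fit was also run on simulated data in which counts of clusters were drawn independently. Shared reads were not simulated, so that run does not bear on the calls reported here. Library totals were recovered from count over FPKM against cluster length. Alternatives were DESeq2 1.42.0, limma 3.58.1 on log2(FPKM + 1) and log2(FPKM + 0.1), RLE and whole-library scaling, no filter, 5 CPM in 3 libraries, a replicate block, each library left out, and sums over the best NR or Swiss-Prot hit. Tables and figures were made with Python 3.11.15. p-values measure the spread between these libraries.

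The naming rule took every called member, the 5 clusters with the highest mean FPKM over 6 libraries among MIF-named clusters and among others, members at 0 in a whole group with a mean of 10 counts or more in the other, and called partners. Other clusters named with values were chosen after their values were seen. Members and lists were chosen with earlier results of these data known.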

Additional observations from a re-analysis of the deposited data

How the results depend on the processing

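The number of changed zf-HD clusters lay between 5 and 10 under the alternatives run. The exception was limma-trend on log2(FPKM + 1), with 11 in place of 7 (52.4%, beside 44.4% of all clusters). The share changed ran from 18.9% with no filter to 55.6% with NR sums, beside 16.2% and 60.3% of all units. With a library left out 6 to 7 changed (26.1% to 30.4%), beside 21.5% to 22.7% of all clusters. On log2(FPKM + 0.1) the 10 calls were 4 higher and 6 lower, beside 662 higher and 1379 lower over all clusters (42.1%). MIF-named calls numbered 2 in place of 4 in the following fits, where fewer units were tested. These were whole-number sums (40%, beside 30.5% of all units), NR sums (50%, beside 60.3%) and Swiss-Prot sums (66.7%, beside 56.7%). With a library left out they numbered 3 to 4 (37.5% to 50%). The others had 5 calls with DESeq2 (38.5%, beside 43.2% of all clusters) in place of 3. They had 5 with log2(FPKM + 0.1) (38.5%, beside 42.1%) and 6 with log2(FPKM + 1) (46.2%, beside 44.4%). With a library left out they had 3 to 4 (20% to 26.7%). The partners had 2 to 4 with a library left out (22.2% to 44.4%), in place of 3. HB had 68 calls with DESeq2 (46.3%, beside 43.2% of all clusters) in place of 45, and 28 to 38 with a library left out (16.4% to 21.8%). Over all clusters, sums over the Swiss-Prot hit gave 851 calls of 1501 units (56.7%) in place of 1476 of 4844 (30.5%), and leaving out a library 1136 to 1210. The log2 ratio of summed MIF-named levels was 0.0061 in CPM in place of −0.36 in FPKM, and −0.42 to −0.30 with a library left out. For the others that range was −0.01 to 0.11. The causes were not tested.

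The replicate number as a block gave 886 calls of 4844 clusters (18.3%), 27 of 147 in HB (18.4%) and 6 of 21 in zf-HD (28.6%). Same-numbered libraries correlated at 0.0047, 0.029 and −0.0038 in their deviations from the group means. Control replicates 1 and 2 each correlated best with the cadmium library of their own number. Control replicate 3 correlated best with cadmium replicate 1 (0.025). Values this small cannot show whether the libraries were paired, and the labels state no pairing.

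Directions turned mainly where a cluster was replaced by a sum. Cluster-9033.79610 and Cluster-9033.79612 turned to −0.0689 with whole-number sums, −0.42 with these under whole-library totals and −0.0593 with NR sums, and Cluster-9033.79610 to −0.16 with Swiss-Prot sums. Cluster-4026.0 turned to −0.0593 with NR sums. Cluster-9033.48681 turned to −1.32, −1.67, −1.32 and −1.31 with these 4 sums in turn, and Cluster-9033.14476 to −0.0356, −0.39, −0.031 and −0.16. With Swiss-Prot sums Cluster-9033.25600 turned to 1.40 and Cluster-9766.0 to −0.093. Cluster-9033.25601 turned to −0.27, −0.61 and −0.0593 with the first 3 sums, −0.27 with whole-library totals, and −0.28 and −0.25 on log2(FPKM + 0.1) and log2(FPKM + 1). With a library left out it ranged from −0.12 to 0.32, Cluster-9033.14474 from −0.37 to 0.0396, and its sum with Cluster-9033.14476 from −0.24 to 0.19. Cluster-9033.449 ranged from 5.19 to 6.10 and was called each time (edgeR adjusted p at most 0.00705). Low counts left 18 members untested, and 17 members have counts that are whole in every library only in sums. A further 8 members had decimals and fell into no such sum.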
